A study of Arabidopsis with 12 samples.

Results

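The RNA-Seq table of *Arabidopsis thaliana* seedlings contained 34 listed chloroplast-encoded genes outside the photosynthesis genes. They are the RNA polymerase genes (*rpo*, 4 genes), the ribosomal protein genes (*rps* and *rpl*, 21 genes) and 9 remaining genes, namely *matK*, *accD*, *clpP*, *cemA*, *ccsA* and *ycf1* to *ycf4*. The members were chosen by their locus identifiers. All 34 were found among the 27371 rows, of which 88 carry a chloroplast locus. Whole 14-day-old seedlings of *wlim2a-1*, a single CRISPR-Cas9 line of the Col-0 background with a frameshift in the LIM-domain gene *WLIM2A*, and of WT (Col-0) were treated for 1 h with 1 µM flg22, a bacterial flagellin peptide, or with water (mock). All seedlings had spent the night before treatment in liquid medium after growth on agar plates. Each of the 4 conditions, *wlim2a-1* flg22, *wlim2a-1* mock, WT flg22 and WT mock, comprised 3 biological replicates. The authors deposited 1 FPKM value (fragments per kilobase of transcript, scaled to the mapped fragments) per gene and condition, with the replicates already combined. No value per replicate was analyzed here, so no error, test or p-value accompanies any value below, and every difference compares single deposited values.

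Chloroplasts keep a small genome of bacterial origin. It encodes the core subunits of a bacterial-type RNA polymerase and part of a bacterial-type ribosome, and the nucleus supplies the other ribosomal proteins, the sigma factors and a phage-type RNA polymerase. Genes such as *rpo*, *rps*, *rpl*, *clpP* and *accD* are often grouped as the genetic system and housekeeping genes of the organelle, and the phage-type polymerase is known to transcribe many of them. Plastid genes are mostly transcribed as long chains of neighboring genes and then cut and spliced. The resulting RNAs mostly lack the stable poly(A) tail of nuclear mRNAs.

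The table holds locus identifiers only. Gene names are those of the standard nomenclature for these identifiers, written from general knowledge. The RefSeq annotation of TAIR10.1 lists the 34 names on the plastid chromosome, in the same order for the 33 genes other than *rps12A*, but does not pair them with the identifiers. Depth per library is not given in the table. The locus AT2G01021 alone held between 28.9% and 67.4% of the summed FPKM of a condition, with 56.5% in *wlim2a-1* mock. Without it the sums lay between 748556 and 846188. *WLIM2A* (AT2G39900) had 6.20 FPKM in *wlim2a-1* flg22, 10.9 in *wlim2a-1* mock, 11.6 in WT flg22 and 12.6 in WT mock, so the transcript of the edited gene was present in all 4 conditions. A gene was called at a 2-fold or larger difference of FPKM + 1, that is, a difference of 1 or more in log2(FPKM + 1). The background, called the tested genes here, is the 19323 rows that reached 1 FPKM in at least 1 condition. This scale understates the change of genes with low values.

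In mock, most of these genes had far higher values in *wlim2a-1*. Of the 34 members, 27 were called higher and 0 lower, whereas 4.48% of the 19323 genes were called higher and 0.611% lower. The median log2 difference was 2.27 over the 34 members and 0.01 over all tested genes. The single condition *wlim2a-1* mock held the highest value of 31 of the 34 members. In the other 3 conditions the values of most members lay close together. Of the members, 33 reached 1 FPKM in some condition, and *ycf1*, *ycf2* and *ccsA* did so only in *wlim2a-1* mock. *rps16* (ATCG00050), a small-subunit gene, never did, with 0.209 FPKM in *wlim2a-1* flg22, 0.476 in *wlim2a-1* mock, 0 in WT flg22 and 0.0733 in WT mock. Since whole seedlings were used, more RNA per cell and more cells or chloroplasts holding such RNA cannot be told apart.

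**Figure D1:**
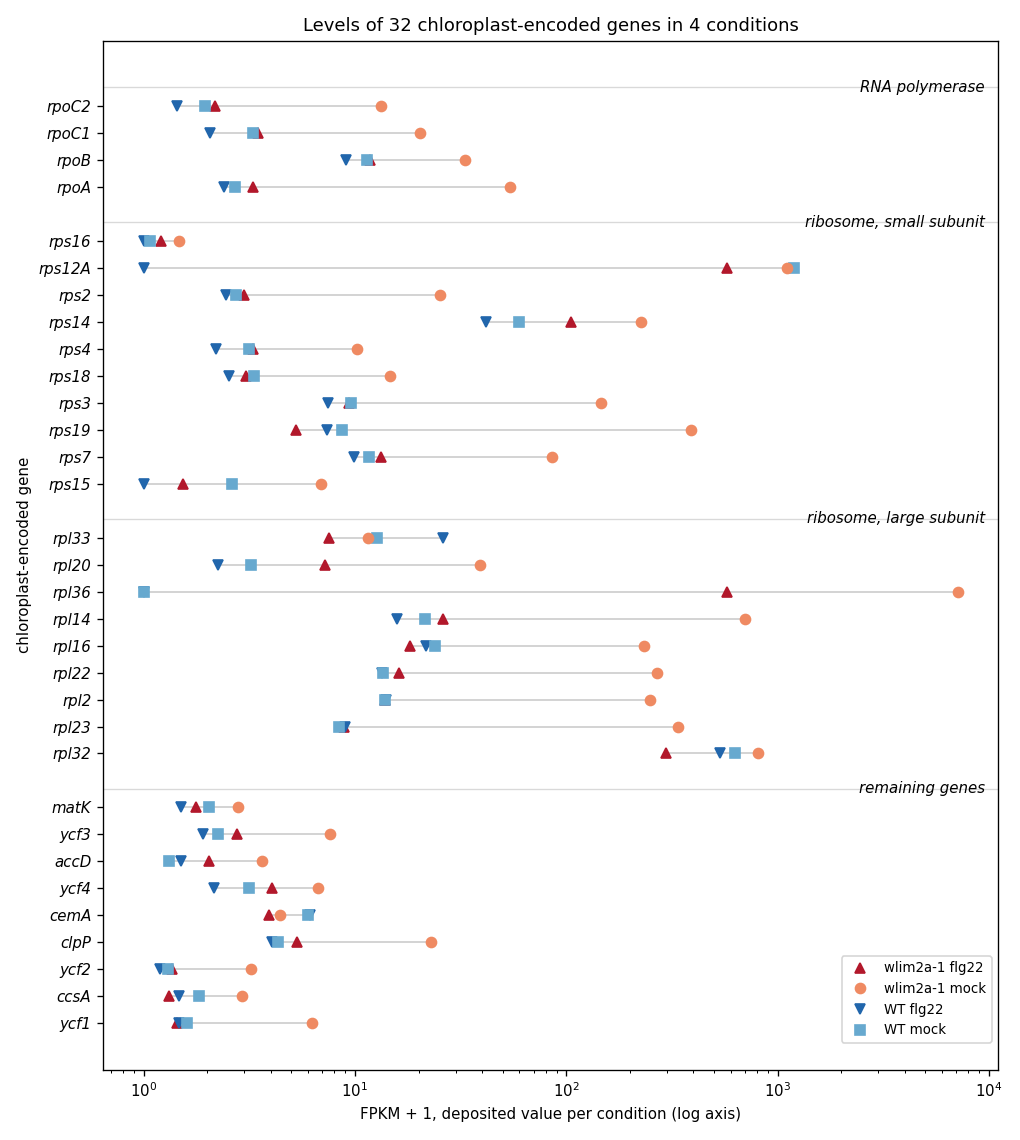
Deposited FPKM + 1 (log axis) of 32 of the genes, grouped by role, with 1 symbol per condition and a gray line spanning the conditions. The circles of *wlim2a-1* mock lie to the right of the other 3 symbols for 29 of the 32 genes, with *rps12A*, *cemA* and *rpl33* as the exceptions.

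The 4 polymerase genes encode the alpha (*rpoA*), beta (*rpoB*) and split beta-prime (*rpoC1*, *rpoC2*) subunits of the plastid-encoded polymerase, and all 4 were called higher in *wlim2a-1* mock. *rpoA* (ATCG00740) had 2.30 FPKM in *wlim2a-1* flg22, 53.1 in *wlim2a-1* mock, 1.40 in WT flg22 and 1.70 in WT mock. The value in *wlim2a-1* mock thus stood alone and was 31.2 times that of WT mock, a log2 difference of 4.32. *rpoB* (ATCG00190) had 10.8 FPKM in *wlim2a-1* flg22, 32.2 in *wlim2a-1* mock, 8.05 in WT flg22 and 10.4 in WT mock. It was the most abundant polymerase gene outside *wlim2a-1* mock and differed least between the genotypes in mock, by 1.54. *rpoC1* (ATCG00180) had 2.47 FPKM in *wlim2a-1* flg22, 19.3 in *wlim2a-1* mock, 1.07 in WT flg22 and 2.29 in WT mock. *rpoC2* (ATCG00170) had 1.19 FPKM in *wlim2a-1* flg22, 12.3 in *wlim2a-1* mock, 0.438 in WT flg22 and 0.960 in WT mock. The 3 genes *rpoB*, *rpoC1* and *rpoC2* follow each other on the chromosome and form a known transcription unit that starts at *rpoB*. Next to *rpoC2* lies *rps2* (ATCG00160), which encodes a small-subunit protein and had 1.98 FPKM in *wlim2a-1* flg22, 24.2 in *wlim2a-1* mock, 1.45 in WT flg22 and 1.74 in WT mock. Along this stretch the ratio of *wlim2a-1* mock to WT mock was 3.09 for *rpoB*, 8.41 for *rpoC1*, 12.8 for *rpoC2* and 14.0 for *rps2*. The order of the levels was the opposite for the 3 *rpo* genes in all 4 conditions, with *rpoB* highest and *rpoC2* lowest.

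The largest differences sat in a row of 11 neighboring genes that runs from *rpl23* to *rpoA* and is known as a transcription unit of ribosomal protein genes. All 11 were called higher in *wlim2a-1* in this comparison. Their median log2 difference was 4.91, against 1.54 over the 23 members outside the row. Among the 8 of them that are described singly below and were above 0 in every condition, the ratio of *wlim2a-1* mock to WT mock ranged from 10.2 to 50.0 with a median of 26.3. Over the 22 members outside the row that reached 1 FPKM, it ranged from 0.680 to 17.2 with a median of 4.77. Of those 22, only *rpl20* differed by as much as the lowest gene of the row. The roles in the following lines are those known from the *Escherichia coli* ribosome.

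At the start of the row, *rpl23* (ATCG00840) encodes a protein beside the exit of the peptide tunnel. It had 7.92 FPKM in *wlim2a-1* flg22, 336 in *wlim2a-1* mock, 7.98 in WT flg22 and 7.41 in WT mock, a log2 difference of 5.32 in mock. *rpl2* (ATCG00830), for a protein near the peptidyl transferase center, had 12.9 FPKM in *wlim2a-1* flg22, 249 in *wlim2a-1* mock, 13.1 in WT flg22 and 12.9 in WT mock. For these neighbors the 3 other conditions were nearly equal, and *wlim2a-1* mock alone stood high. *rps19* (ATCG00820), for a protein of the small-subunit head, had 4.25 FPKM in *wlim2a-1* flg22, 387 in *wlim2a-1* mock, 6.33 in WT flg22 and 7.73 in WT mock. Its ratio of *wlim2a-1* mock to WT mock was 50.0. *rpl22* (ATCG00810), whose product lines the peptide tunnel, had 15.1 FPKM in *wlim2a-1* flg22, 268 in *wlim2a-1* mock, 12.5 in WT flg22 and 12.6 in WT mock. *rps3* (ATCG00800), whose product lies where the mRNA enters, had 8.35 FPKM in *wlim2a-1* flg22, 145 in *wlim2a-1* mock, 6.42 in WT flg22 and 8.54 in WT mock. Both showed the same arrangement, with ratios in mock of 21.3 and 17.0.

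In the middle of the row, *rpl16* (ATCG00790), for a protein close to the bound tRNAs, had 17.3 FPKM in *wlim2a-1* flg22, 233 in *wlim2a-1* mock, 20.7 in WT flg22 and 22.9 in WT mock. With a log2 difference of 3.29 it differed least among the 11 genes. *rpl14* (ATCG00780), for a protein on the face toward the small subunit, had 25.0 FPKM in *wlim2a-1* flg22, 699 in *wlim2a-1* mock, 14.8 in WT flg22 and 20.4 in WT mock. Its ratio in mock was 34.3. The row ends at *rpoA*, described above with a ratio of 31.2.

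A further gene of the row, *rpl36* (ATCG00760), encodes one of the smallest ribosomal proteins, and its values were irregular. It had 573 FPKM in *wlim2a-1* flg22 and 7116 in *wlim2a-1* mock, and was listed at 0 in WT flg22 and in WT mock, so no fold is given. *rps12A* (ATCG00065), the short locus of the 5′ exon of the trans-spliced *rps12*, had 573 FPKM in *wlim2a-1* flg22, 1108 in *wlim2a-1* mock, 0 in WT flg22 and 1192 in WT mock. The 2 loci carried exactly the same value in *wlim2a-1* flg22, and no other row of the table carried it. The values of these short loci jumped between 0 and levels of 573 FPKM or more, whereas the other 10 genes of the row were above 0 throughout. They also dominated sums, since *rpl36* made up 57.0% of the summed FPKM of the 34 members in *wlim2a-1* mock, and *rps12A* made up 58.4% in WT mock.

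**Figure D2:**
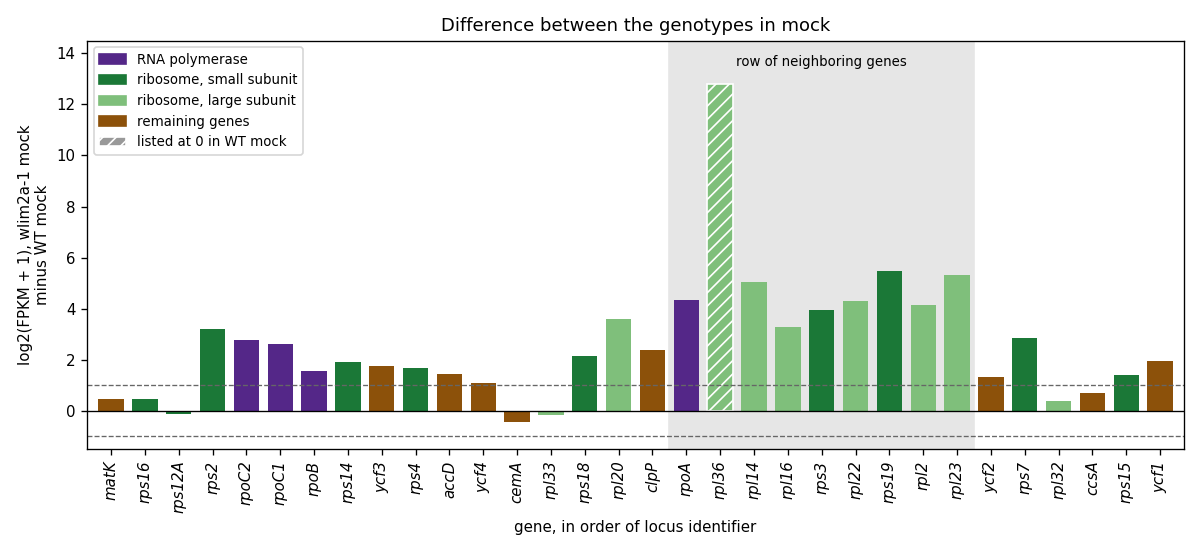
Log2(FPKM + 1) of *wlim2a-1* mock minus that of WT mock for 32 of the genes in the order of their locus identifiers, colored by role. Dashed lines mark 2-fold, and the gray band marks genes of the row from *rpoA* to *rpl23*, of which those plotted lie between 3.29 and 5.47 except the hatched *rpl36*, which was listed at 0 in WT mock.

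Outside this row, the ribosomal protein genes were less uniform, with a median log2 difference in mock of 1.69 over 11 genes. *rpl20* (ATCG00660), for a protein of the large subunit, had 6.25 FPKM in *wlim2a-1* flg22, 38.0 in *wlim2a-1* mock, 1.26 in WT flg22 and 2.21 in WT mock, a ratio of 17.2 in mock. *rps18* (ATCG00650), for a protein of the small subunit, had 2.05 FPKM in *wlim2a-1* flg22, 13.7 in *wlim2a-1* mock, 1.55 in WT flg22 and 2.32 in WT mock. *rpl33* (ATCG00640), for a large-subunit protein that tobacco can lack under normal growth, had 6.54 FPKM in *wlim2a-1* flg22, 10.5 in *wlim2a-1* mock, 25.0 in WT flg22 and 11.7 in WT mock. These 3 genes are direct neighbors. Of them, *rpl33* was highest in WT flg22 and differed by -0.15 between the genotypes in mock. *rps7* (ATCG00900), for a protein that starts assembly of the small-subunit head in *E. coli*, had 12.3 FPKM in *wlim2a-1* flg22, 84.3 in *wlim2a-1* mock, 8.87 in WT flg22 and 10.7 in WT mock. *rps4* (ATCG00380), an early assembly protein of the small subunit in *E. coli*, had 2.31 FPKM in *wlim2a-1* flg22, 9.19 in *wlim2a-1* mock, 1.20 in WT flg22 and 2.16 in WT mock. Both were called higher in *wlim2a-1* mock, with ratios of 7.89 and 4.26.

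*rps14* (ATCG00330) lies beside the photosystem I genes *psaA* and *psaB* and is known to be transcribed with them. It had 105 FPKM in *wlim2a-1* flg22, 225 in *wlim2a-1* mock, 40.7 in WT flg22 and 58.7 in WT mock, so both *wlim2a-1* values lay above both WT values. *rpl32* (ATCG01020), a large-subunit gene, had 295 FPKM in *wlim2a-1* flg22, 809 in *wlim2a-1* mock, 532 in WT flg22 and 625 in WT mock. It was abundant throughout and differed by 0.37 in mock, which is below 2-fold. *rps15* (ATCG01120), a small-subunit gene, had 0.529 FPKM in *wlim2a-1* flg22, 5.89 in *wlim2a-1* mock, 0 in WT flg22 and 1.63 in WT mock.

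The 9 remaining genes had lower levels and smaller differences, with a median log2 difference in mock of 1.31, and 6 of them were called higher. *clpP* (ATCG00670), for the catalytic subunit of the Clp protease, had 4.31 FPKM in *wlim2a-1* flg22, 21.8 in *wlim2a-1* mock, 3.04 in WT flg22 and 3.33 in WT mock. It had the largest difference of this group, 2.40, and lies on the chromosome near *rpl20*. *accD* (ATCG00500), for a subunit of the plastid acetyl-CoA carboxylase of fatty acid synthesis, had 1.04 FPKM in *wlim2a-1* flg22, 2.64 in *wlim2a-1* mock, 0.497 in WT flg22 and 0.319 in WT mock. *ycf1* (ATCG01130), for a component of the inner envelope protein translocon, had 0.440 FPKM in *wlim2a-1* flg22, 5.23 in *wlim2a-1* mock, 0.463 in WT flg22 and 0.597 in WT mock. *ycf2* (ATCG00860), for a part of an ATPase complex tied to protein import, had 0.360 FPKM in *wlim2a-1* flg22, 2.23 in *wlim2a-1* mock, 0.194 in WT flg22 and 0.301 in WT mock. These 3 genes were called higher in *wlim2a-1* mock from very low WT values.

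*ycf3* (ATCG00360), for an assembly factor of photosystem I, had 1.77 FPKM in *wlim2a-1* flg22, 6.62 in *wlim2a-1* mock, 0.909 in WT flg22 and 1.25 in WT mock. *ycf4* (ATCG00520), for another such factor, had 3.07 FPKM in *wlim2a-1* flg22, 5.70 in *wlim2a-1* mock, 1.16 in WT flg22 and 2.14 in WT mock. With 1.10 it was the member closest above the 2-fold line, and *ccsA* with 0.68 was the closest below it. *ccsA* (ATCG01040), needed to attach heme to *c*-type cytochromes, had 0.313 FPKM in *wlim2a-1* flg22, 1.92 in *wlim2a-1* mock, 0.467 in WT flg22 and 0.824 in WT mock. *matK* (ATCG00040), for the intron maturase, had 0.769 FPKM in *wlim2a-1* flg22, 1.79 in *wlim2a-1* mock, 0.495 in WT flg22 and 1.03 in WT mock, which was within 2-fold. *cemA* (ATCG00530), for an envelope membrane protein, had 2.92 FPKM in *wlim2a-1* flg22, 3.40 in *wlim2a-1* mock, 5.14 in WT flg22 and 5.0 in WT mock. It was the only one of the 9 with lower values in *wlim2a-1* under both treatments, by -0.65 after flg22 and -0.45 in mock, neither of which passed 2-fold.

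Several members have further loci in the inverted repeat, whose sequences are near-identical, so reads can be shared and the separate values are uncertain. All 7 further loci were called higher in *wlim2a-1* mock, with a median log2 difference of 3.09. The further copy of *rpl23* (ATCG01300) had 11.2 FPKM in *wlim2a-1* flg22, 366 in *wlim2a-1* mock, 9.71 in WT flg22 and 8.35 in WT mock. The further copy of *rpl2* (ATCG01310) had 13.3 FPKM in *wlim2a-1* flg22, 253 in *wlim2a-1* mock, 13.7 in WT flg22 and 13.6 in WT mock. Both lay close to the values of the member locus. The further copy of *rps7* (ATCG01240) had 8.98 FPKM in *wlim2a-1* flg22, 95.7 in *wlim2a-1* mock, 9.19 in WT flg22 and 7.70 in WT mock. The loci with the 3′ exons of *rps12*, ATCG00905 and ATCG01230, had 22.0 and 18.1 FPKM in *wlim2a-1* mock, against 2.84 and 3.77 in WT mock. They differed from *rps12A*, which was at 1108 FPKM in *wlim2a-1* mock, against 1192 in WT mock.

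Summed over the 34 members, the FPKM was 1719 in *wlim2a-1* flg22, 12478 in *wlim2a-1* mock, 726 in WT flg22 and 2042 in WT mock. Without the short loci *rps12A* and *rpl36*, the sums were 574 in *wlim2a-1* flg22, 4254 in *wlim2a-1* mock, 726 in WT flg22 and 850 in WT mock. The ratio of *wlim2a-1* mock to WT mock was then 5.01 in place of 6.11. After flg22 the ratio of *wlim2a-1* to WT was 2.37 with these 2 loci and 0.790 without them, so its direction rested on them. When the abundant *rpl32* and *rps14* were also left out, a choice made after the values were seen, the sums of the 30 others were 174, 3219, 153 and 166 in the same order of conditions. The ratio after flg22 was then 1.13. The value below 1 rested in turn on *rpl32*, with 295 FPKM in *wlim2a-1* flg22 and 532 in WT flg22. For *rps14* the order was the opposite, with 105 and 40.7. *rpl32* alone made up 73.3% of the members' sum in WT flg22.

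Treatment with flg22 was compared to mock within *wlim2a-1*, a comparison that shares the *wlim2a-1* mock values with the one above. All 34 members were lower after flg22. Of these, 27 were called lower and 0 higher, whereas 4.25% of the tested genes were called lower and 5.53% higher. The median log2 difference was -2.22 over the members and -0.09 over all tested genes. It was -4.17 over the 11 genes from *rpl23* to *rpoA*, all of them called lower. *rps19* differed most, by -6.21. The 7 members that stayed within 2-fold were *matK*, *rps16*, *rps12A*, *accD*, *ycf4*, *cemA* and *rpl33*, with differences between -0.95 and -0.17.

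In WT, the same treatment left most members within 2-fold. Of the 34, 1 was called higher and 2 lower, whereas 4.47% of the tested genes were called higher and 0.471% lower. The median was -0.24, and 28 of the 34 values were lower after flg22, 5 higher and 1 equal at 0. The member called higher was *rpl33*, by 1.04. Those called lower were *rps12A* and *rps15*, both listed at 0 in WT flg22. The 4 polymerase genes all had negative differences, between -0.67 and -0.17.

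Subtracting the WT response from the *wlim2a-1* response gave a value of -1 or lower for 26 of the 34 members and of 1 or higher for 1, *rps12A*, whereas 3.70% of the tested genes lay at -1 or lower and 1.46% at 1 or higher. This difference was not tested. By its arithmetic it equals the genotype difference after flg22 minus that in mock, so it rests on the same 4 values per gene.

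After flg22, the genotypes lay closer together than in mock. Of the 34 members, 5 were called higher in *wlim2a-1* than in WT and 1 lower, whereas 1.16% of the tested genes were called higher and 0.352% lower. The median log2 difference was 0.39 over the members and -0.02 over all tested genes. *rps12A* and *rpl36* were listed at 0 in WT flg22. Also called higher were *rpl20*, with 6.25 FPKM in *wlim2a-1* flg22 and 1.26 in WT flg22, and *rps14*, with 105 and 40.7. The member called lower was *rpl33*, with 6.54 FPKM in *wlim2a-1* flg22 and 25.0 in WT flg22. All 4 polymerase genes had somewhat higher values in *wlim2a-1*, between 0.38 and 0.75 on the log2 scale, none past 2-fold on the FPKM + 1 scale. At these low levels the ratio of the FPKM themselves was larger, 2.70 for *rpoC2* and 2.32 for *rpoC1*, and with a pseudocount of 0.1 the members called higher numbered 10. For *rpl2* and *rpl23* the values after flg22 were nearly equal, with ratios of *wlim2a-1* to WT of 0.981 and 0.993, although the same genes differed 19.2-fold and 45.3-fold in mock.

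**Figure D3:**
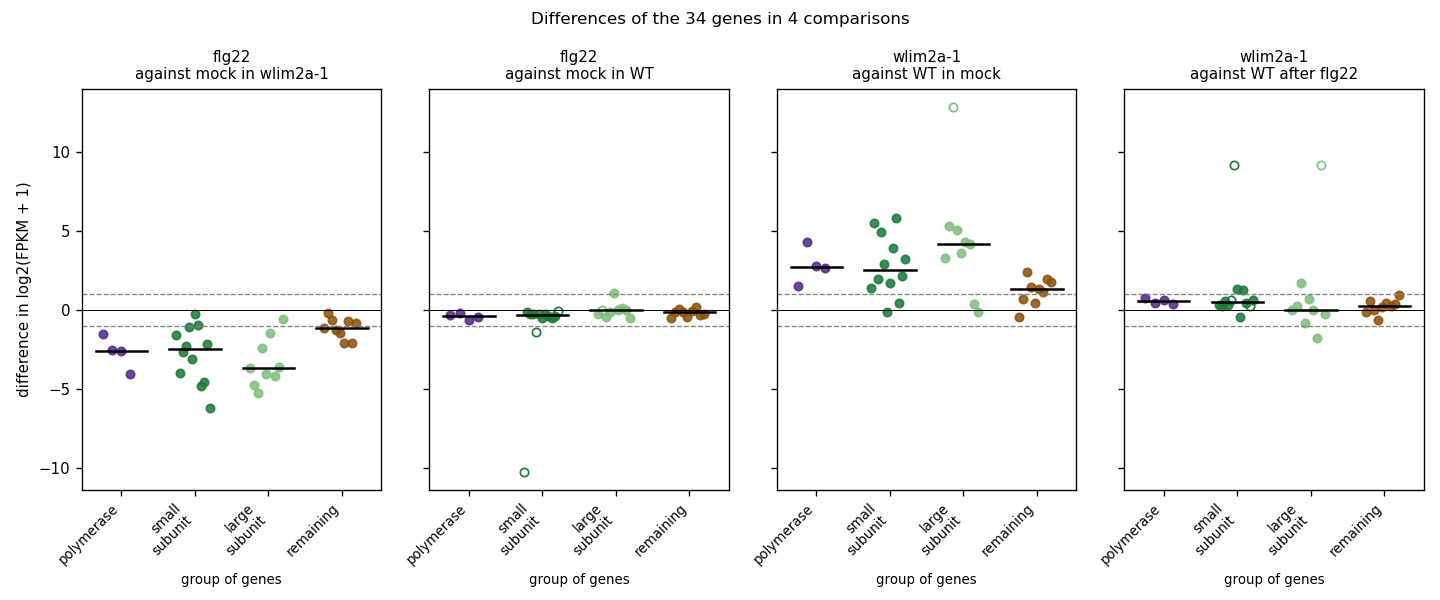
Difference in log2(FPKM + 1) of the 34 genes in the 4 comparisons, by role, with medians as black bars, dashed lines at 2-fold and open circles for genes listed at 0 in a condition of that comparison. Points spread upward for *wlim2a-1* against WT in mock and downward for flg22 against mock in *wlim2a-1*, and lie nearer to 0 in the other 2 comparisons.

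By role, the order in mock was ribosomal protein genes, polymerase genes and remaining genes, with medians of 3.29, 2.69 and 1.31. This order depended on the *rpl23* to *rpoA* row. Without the row, the polymerase genes left were *rpoB*, *rpoC1* and *rpoC2*, all of the same known transcription unit. They came first with 2.62, the value of *rpoC1*, then ribosomal protein genes with 1.69 and remaining genes with 1.31. The distance of the remaining genes also depended on the pseudocount, since their median was 2.31 with a pseudocount of 0.1. Among the ribosomal genes, the 10 inside the *rpl23* to *rpoA* row had a median 3.28 above that of the 11 outside it. Whether position in the row accounts for this was not tested. The polymerase gene inside the row, *rpoA*, also had the largest difference of its group. Over the whole background, 39 genes exceeded WT mock at least 16-fold in *wlim2a-1* mock on the FPKM + 1 scale. Of these, 9 were members, all from the row, and 2 more were further copies of members.

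The chloroplast photosynthesis genes were compared as the most similar group. Of 45 listed, 41 reached 1 FPKM, and of these 29 were called higher and 5 lower in mock in *wlim2a-1*, with a median log2 difference of 1.71. Among the 34 of them that were above 0 in every condition, 29 were called higher and 1 lower, with a median of 1.99. The 23 members outside the *rpl23* to *rpoA* row had a median of 1.54, which was not above that of the photosynthesis genes. The largest changes of photosynthesis genes were those of *psbL*, *psbT* and *psbI*, all listed at 0 in *wlim2a-1* mock. The ATP synthase genes *atpB* and *atpE*, named here after their values were seen, reached 1373 and 1411 FPKM in *wlim2a-1* mock, against 41.1 and 72.0 in WT mock, so differences of the size seen in the *rpl23* to *rpoA* row also occurred among photosynthesis genes. Most of the photosynthesis genes also fell after flg22 in *wlim2a-1*, where 25 of the 41 were called lower and 6 higher with a median of -1.52, against -2.22 for the members. Of the 34 that passed and were above 0 in every condition, 24 were called lower and 2 higher. Between the genotypes after flg22, 18 of the 41 were called higher in *wlim2a-1* and 2 lower, with a median of 0.88, against 0.39 for the members. Members made up 14.9% of the summed FPKM of all chloroplast rows in *wlim2a-1* flg22, 30.2% in *wlim2a-1* mock, 6.82% in WT flg22 and 13.0% in WT mock. Without *rps12A* and *rpl36*, which were taken out of all sums after the values were seen, these shares were 5.54%, 12.9%, 6.82% and 5.85% in the same order of conditions, so that the share after flg22 was then lower in *wlim2a-1* than in WT. In WT flg22 that share came mostly from *rpl32*, which made up 73.3% of the members' sum. No test of the difference between the groups of genes could be made.

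Mitochondria-encoded genes, which also give few polyadenylated RNAs, differed in mock by a median of 0.51 (log2) over the 58 of 122 rows that reached 1 FPKM, with 17 called higher and 2 lower. The sums of their values, 418 FPKM in *wlim2a-1* flg22, 408 in *wlim2a-1* mock, 312 in WT flg22 and 279 in WT mock, were higher in *wlim2a-1* under both treatments and nearly equal in its flg22 and mock columns. The medians had the signs of the members' medians in *wlim2a-1* at a smaller size, with -0.36 for flg22 in *wlim2a-1* (9 called lower, 5 higher), 0.09 for the genotypes after flg22 and -0.42 for the difference of the flg22 responses. In mock, 46 of the 58 were above 0. Both descriptions of the libraries name mRNA, but they differ in who or what kit prepared them. The methods of the study refer to the protocol of the kit's maker, and neither description itself spells out how mRNA was selected. The part that the capture of non-polyadenylated RNA played in the members' values was not tested.

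Nuclear genes whose products work with the members differed much less, but mostly in the same direction in mock and for flg22 in *wlim2a-1*. Of 78 such genes, 5 were called higher and 0 lower in *wlim2a-1* mock, with a median log2 difference of 0.26, against 2.27 for the members. In mock, 62 of the 78 were above 0 and 16 below, whereas 9860 of the 19323 tested genes were above 0. After flg22 in *wlim2a-1*, 74 were lower and 4 higher, with a median of -0.48. In WT, too, 76 were lower after flg22 and 2 higher, with a median of -0.20. Of the 19323 tested genes, 11173 were lower after flg22 in *wlim2a-1* and 11373 in WT. The list of 33 nuclear plastid ribosomal proteins had 0 called in any comparison, with medians in mock of 0.11 for the small and 0.14 for the large subunit. Neither the 8 genes for phage-type polymerases and sigma factors nor the 12 for polymerase-associated proteins had a call in mock, with medians of 0.31 and 0.34. The sigma factor gene *SIG2* had 18.6 FPKM in *wlim2a-1* flg22, 48.5 in *wlim2a-1* mock, 19.6 in WT flg22 and 23.8 in WT mock. Its difference in mock lay just below the 2-fold line. The polymerase-associated *PTAC3* had 11.6, 25.3, 12.4 and 15.4 in the same order of conditions. *SIG2* and *PTAC3* were the only genes of these lists called lower after flg22 in *wlim2a-1*. Of the 13 Clp protease genes, 4 were called higher in *wlim2a-1* mock. Among them were *CLPP6* with 32.1 FPKM in *wlim2a-1* mock, against 11.0 in WT mock, AT1G09130 (*CLPR3*) with 40.2 and 16.2, and *CLPD* (AT5G51070, *ERD1* in RefSeq) with 86.3 and 36.4. *CLPD* was also called higher after flg22 in WT, with 111 FPKM in WT flg22, against 36.4 in WT mock. After flg22 in *wlim2a-1*, AT1G09130, *CLPP6* and *CLPP3* were called lower. The acetyl-CoA carboxylase gene *CAC1*, a partner of *accD*, had 23.6 FPKM in *wlim2a-1* flg22, 54.8 in *wlim2a-1* mock, 24.7 in WT flg22 and 23.3 in WT mock. Only *wlim2a-1* mock stood high, at a far smaller difference than in most members, 1.20 on the log2 scale. AT5G01590 (*TIC56*), a partner of *ycf1*, had 42.6 FPKM in *wlim2a-1* flg22, 112 in *wlim2a-1* mock, 44.0 in WT flg22 and 58.0 in WT mock. It was called lower after flg22 in *wlim2a-1*, the only call among the 8 partners of the *ycf* and *ccsA* proteins.

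**Figure D4:**
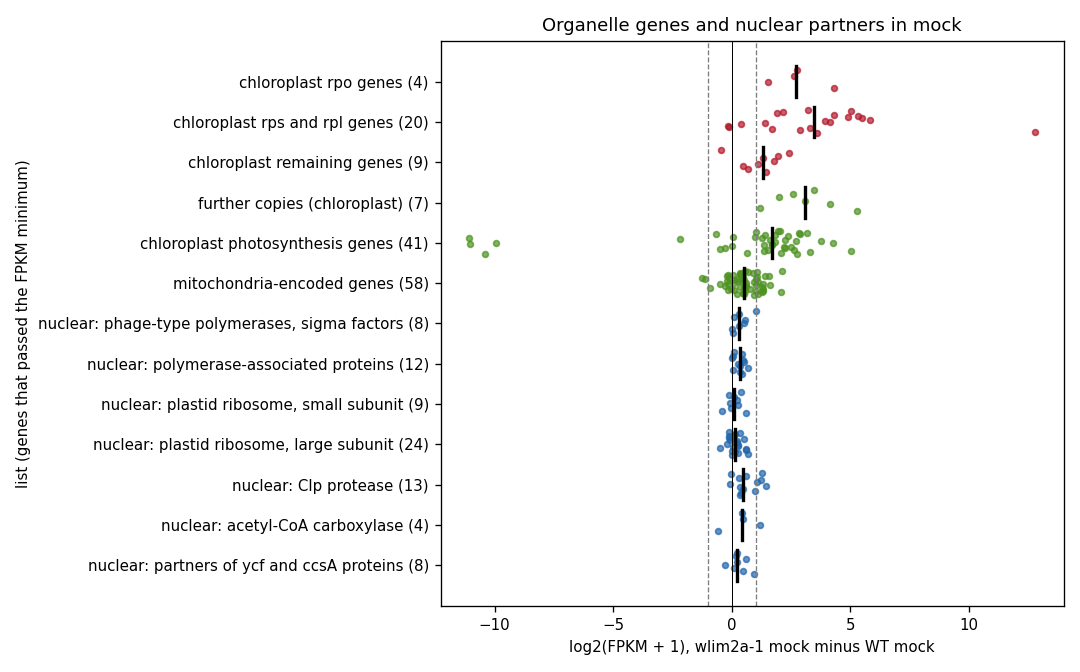
Log2(FPKM + 1) of *wlim2a-1* mock minus that of WT mock for the members (red), other organelle-encoded genes (green) and nuclear genes whose products work with the members (blue), with medians as black bars, dashed lines at 2-fold and the number of genes in parentheses. The nuclear lists have medians between 0.11 and 0.46, whereas the chloroplast lists have medians of 1.31 or more.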

How the data were processed

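3 biological replicates of each condition were sequenced. The methods of the study name a stranded mRNA kit, and the labels a service provider's protocol with fragmented mRNA. According to the methods of the study, reads were trimmed and aligned by the authors with TopHat (TAIR 10), and Cufflinks assembled the transcripts. The submitters' processing notes list FastQC 0.11.5, TopHat2 2.1.1 and Cuffdiff 2.2.1. The deposited values are FPKM, which the authors gave as 1 value per gene and condition after combining replicates. The sources used here do not name the program that wrote them. The methods of the study state quartile normalization for Cuffdiff, but not whether the deposited values carry it. Depth is unknown, and zeros can be failed estimates.

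Here a pseudocount of 1 was added, log2 differences were formed (Python with pandas and matplotlib), and genes at 1 FPKM or more in at least 1 condition served as background. Medians and counts of members cover all 34, and values of 2 members are not reported here singly. The calculation was checked on simulated data. Members, gene lists, clusters and thresholds were chosen with earlier results of these data known. From lists other than the members, genes past 2-fold were named, at most the 3 with the largest change per list and comparison. All 78 nuclear partner loci were found in RefSeq (TAIR10.1), 62 with a symbol of their own, and the other names come from general knowledge. No sequences or coordinates are given, since the builds differ and no genome was used here. Alternatives covered pseudocounts of 0.1 and 5, other FPKM minimums, fold thresholds of 1.5 and 4, 3 scalings and subsets of the members.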

Additional observations from a re-analysis of the deposited data

Results flagged for a closer look

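For 5 members the value moved in opposite directions after flg22 in the 2 genotypes, lower in *wlim2a-1* and higher in WT. The response in *wlim2a-1* minus that in WT, in log2(FPKM + 1), was -1.64 for *rpl33*, -1.01 for *accD*, -0.20 for *cemA*, -4.19 for *rpl2* and -5.33 for *rpl23*. With 1 deposited value per condition, none of these differences was tested. Only for *rpl33* was the WT response itself past 2-fold. For *cemA*, *rpl2* and *rpl23* the WT responses were 0.03, 0.02 and 0.09, so the opposite sign there rests on nearly equal values.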

How the results depend on the processing

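No paired analysis was possible because the deposited columns combine the replicates, and no replicate could be left out for the same reason. A count or a ratio of sums was taken as unchanged within 1.5 times its reported value, and a median within 1.5-fold and on its side of the 2-fold line. Of 896 values of single members under the alternatives, 822 kept their side of the line, 41 lost and 33 gained a call, and none of those called changed direction. The 27 calls higher in mock in *wlim2a-1* and 27 lower after flg22 there stayed within 1.5 times except without the *rpl23* to *rpoA* row. Both counts were then 16 of 23 members. All 11 genes of the row were called in both comparisons and had the lower flg22 response. Leaving them out therefore lowered these counts by arithmetic alone. The counts for flg22 in WT and for the genotypes after flg22 are small and moved most.

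With a pseudocount of 0.1, the mock medians were 3.28 for polymerase and 2.31 for remaining genes, and 10 members were called higher in *wlim2a-1* after flg22. With a pseudocount of 5, the mock medians were 1.61 over all members, 1.63 for polymerase, 2.57 for ribosomal and 0.52 for remaining genes, the last within 2-fold. The median for flg22 in *wlim2a-1* was -1.46, the WT calls 0 higher and 1 lower, and the calls higher after flg22 were 3. At a threshold of 1.5-fold, 12 members were higher and 3 lower in *wlim2a-1* after flg22. At 4-fold these were 2 and 0, the WT calls 0 higher and 1 lower, and 15 members had the lower flg22 response in *wlim2a-1*.

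All 3 scalings (nuclear sums, upper quartiles, *ACT2* with *UBQ10*) left 0 members higher after flg22 in WT, so the call of *rpl33* there was lost. The *ACT2* and *UBQ10* ratio shifted the median of all tested genes to -0.63 for flg22 in *wlim2a-1* and -0.55 for flg22 in WT. Under it 4 members were lower after flg22 in WT, and the flg22 to mock ratios of the sums were 0.0884 in *wlim2a-1* and 0.237 in WT.

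Another subset left out *rpl2*, *rpl23*, *rps7*, *ycf1* and *ycf2*, which have a second copy. It also left out *rps12A*, whose further loci hold the 3′ exons and not a copy of it. In this subset 1 member was lower after flg22 in WT and 0 had the higher response in *wlim2a-1*. The ratios of sums were 0.851 for flg22 in WT and 13.1 for the genotypes in mock. *rps12A* was itself called lower in WT and was the only member with the higher response, so both counts changed with it. With only *rps12A* and *rpl36* left out, these ratios were 0.855 and 5.01. Leaving out members listed at 0 and leaving out the row were added after seeing the data. Without those at 0, 0 members were lower after flg22 in WT, 3 were higher in *wlim2a-1* after flg22, 0 had the higher response, and the ratios of sums were 0.857 for flg22 in WT and 0.789 for the genotypes after flg22, a ratio now below 1. Without the row, the medians were -1.46 for flg22 in *wlim2a-1*, 1.54 for the genotypes in mock and 1.69 for ribosomal genes there, 3 members were higher in *wlim2a-1* after flg22, 15 had the lower response, and the ratios of sums were 0.423 for flg22 in *wlim2a-1* and 1.26 for the genotypes in mock. The cause of each change under the pseudocounts and scalings was not tested.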
